A study of Homo sapiens with 23 samples.

Results

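A set of 10 sequence-specific transcription factors that mark or maintain the luminal state of breast epithelium was followed in T47D cells, a luminal breast cancer line that expresses the estrogen receptor. The 10 genes were chosen by name, as known luminal factors, though with earlier results of these data known: TRPS1, ESR1, GATA3, FOXA1, TFAP2A, TFAP2B, TFAP2C, SPDEF, ELF3 and XBP1. Each matched 1 of the 60605 Ensembl genes in the count table, and all 10 passed the filter on low counts, TFAP2B with only 13 to 72 reads per library. The assay was PRO-seq (precision run-on sequencing), in which engaged RNA polymerases add a labelled nucleotide in permeabilized cells, so that reads count polymerases in the act of transcription. All libraries came from T47D dTAG-TRPS1 Clone 28, a single clone with a degron tag at the native TRPS1 locus, in which further TRPS1 copies were inactivated, so that all TRPS1 protein carries the tag. The control group received DMSO (0.1% v/v for 24 h, 4 replicates). The 5 treated groups received dTAG-13 together with dTAG-V-1, both at 50 nM and jointly termed dTAG, which direct the tagged protein to degradation, for 0.5, 1, 2 or 4 h (4 replicates each) or 24 h (replicates 2, 3 and 4). The DMSO and dTAG cells carried the same tag and the same inactivated copies, and were grown in serum-containing medium with insulin.

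Luminal identity rests on a small set of factors that bind enhancers together. FOXA1 and GATA3 are pioneer-type factors that open or mark chromatin for the estrogen receptor encoded by ESR1, the AP-2 proteins encoded by TFAP2A, TFAP2B and TFAP2C bind many of the same elements, and the ETS factors SPDEF and ELF3 act in epithelial differentiation. XBP1 is an estrogen-responsive factor of the unfolded protein response, and TRPS1 is an atypical GATA-family protein that recruits corepressors. The comparison asks how transcription of these genes follows the loss of TRPS1 protein, from 0.5 h to 24 h.

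Promoter sequence is shown for SPDEF and GATA3, because these were the genes of the set whose transcription fell at 4 consecutive times. The 250 bases before the RefSeq start (GRCh38.p14, the hg38 coordinate system) lie at chr6:34556330-34556579 on the minus strand for SPDEF and at chr10:8054438-8054687 on the plus strand for GATA3. They are written 5′ to 3′ in lower case, with letters that match 1 of the searched motifs in capitals.
SPDEF: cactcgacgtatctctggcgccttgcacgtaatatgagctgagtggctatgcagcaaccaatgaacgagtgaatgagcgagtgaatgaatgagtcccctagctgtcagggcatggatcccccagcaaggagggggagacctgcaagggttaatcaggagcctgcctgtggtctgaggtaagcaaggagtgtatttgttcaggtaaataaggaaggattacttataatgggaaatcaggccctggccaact
GATA3: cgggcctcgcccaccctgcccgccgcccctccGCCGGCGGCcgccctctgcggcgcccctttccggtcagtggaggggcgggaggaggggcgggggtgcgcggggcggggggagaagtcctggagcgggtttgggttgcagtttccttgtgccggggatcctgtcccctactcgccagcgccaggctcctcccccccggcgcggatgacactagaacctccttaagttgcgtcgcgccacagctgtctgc
Windows of 300 bases (250 before to 50 after the start) that hold the canonical transcript start were found for 7 of the 10 genes: SPDEF, GATA3, ESR1, FOXA1, ELF3, XBP1 and TFAP2B. Searched on both strands, the GATA letters AGATAA and the variant AGATAG, together with TGATAA and its variant TGATAG, were in 0 of these 7 windows and in 25.0% of the 34943 windows of that length. The estrogen response half-site AGGTCA was in 0 of 7, against 13.8% of all windows. The AP-2 letters GCCNNNGGC were in 1 of 7, the GATA3 window, against 23.2%. The forkhead letters TGTTTAC or TGTTTGC were in 1 of 7, the FOXA1 window, against 7.17%. None of the 7 windows held more than 1 of these motifs, so none overlapped another. TRPS1, TFAP2A and TFAP2C were not searched.

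The 23 libraries held 4408544 to 17571616 reads in genes (median 9768427). Replicate numbers were read as harvests made at different times of one day, and 34.7% of the 26057 genes that passed the filter differed between numbers at an adjusted p (FDR, Benjamini-Hochberg) under 0.1 in edgeR's quasi-likelihood test (called, in what follows), so results are given without and with the replicate number as a block. The luminal label was checked with 14 luminal markers, all of which passed the filter, with a summed level of 5686 to 5981 CPM (read counts scaled to a fixed library size with edgeR's TMM factors) in DMSO. Of 18 basal or mesenchymal markers 12 passed, and their summed level was 96.7 to 107.0 CPM in DMSO. The defining basal keratins KRT5 and KRT14 had 0 to 3 and 0 to 6 reads per library. TP63 and EGFR were the highest of the basal list, with a mean of 19.8 CPM each in DMSO. The lowest luminal marker, TFF1, had a mean of 3.84 CPM there. At 24 h the luminal sum was 5389 to 5582 CPM, below every DMSO library, and PRLR alone made up 4259 of the mean DMSO sum of 5831 CPM. Over all groups the basal sum lay between 92.3 and 125.9 CPM. The counts cannot show the loss of TRPS1, which takes place at the protein.

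Levels of the 10 genes in DMSO spanned 460.2-fold when compared per kb of gene span, and SPDEF, the ninth in order, still stood above 94.3% of the coding genes that passed the filter. XBP1 was highest at 54.0 ± 3.18 CPM per kb (SD, n = 4), followed by GATA3 at 36.5 ± 0.563 and FOXA1 at 24.9 ± 2.25. TRPS1 had 22.9 ± 2.22 and TFAP2C 21.8 ± 0.82 CPM per kb, and the library values of FOXA1, TRPS1 and TFAP2C overlapped for each pair of neighbours. TFAP2A followed at 8.81 ± 0.235 CPM per kb, then ELF3 at 5.45 ± 0.69, ESR1 at 5.34 ± 0.283 and SPDEF at 4.94 ± 0.371, whose values again overlapped from one neighbour to the next. TFAP2B was far below at 0.117 ± 0.0211 CPM per kb, against a median of 0.867 for the 15720 coding genes that passed. XBP1 was thus separated from GATA3, GATA3 from FOXA1, TFAP2C from TFAP2A, TFAP2A from ELF3 and SPDEF from TFAP2B by gaps that no DMSO library crossed. The ESR1 span of 472.9 kb includes remote upstream starts, which lowers a level taken per kb. Per kb of exon the order differed, with TRPS1 first at 830.3 CPM and GATA3 next at 320.9 CPM, and TFAP2B again last at 0.551 CPM.

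**Figure D1:**
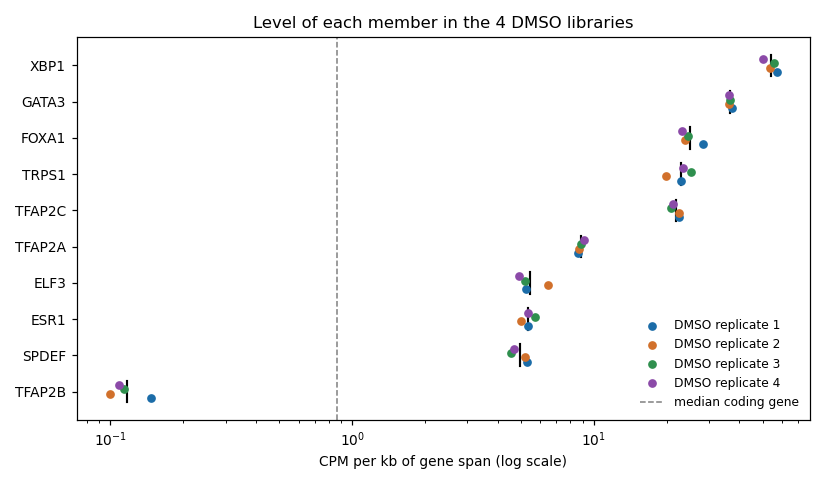
Level of the 10 factors in the 4 DMSO libraries, as CPM per kb of gene span on a log scale. Coloured points are libraries, black bars are means and the dashed line is the median coding gene (0.867). XBP1 and GATA3 lead, and TFAP2B lies below the median coding gene.

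TRPS1 (chromosome 8, 115408496 to 115809673) also had the most reads of all 60605 genes, with 40567 to 210306 per library, or 0.816% to 1.2% of a library. The 10 genes together held 1.28% to 1.67% of the reads. TRPS1 is 401.2 kb long, so this share reflects its span as well as its density, and its CPM was 8.42 times that of GATA3 in DMSO while its level per kb was lower.

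Transcription of SPDEF, GATA3 and TFAP2A fell within 0.5 h of dTAG, and at 24 h it was above its 0.5 h level for each of them. SPDEF changed most at 0.5 h, by -21.6% (95% interval -26.9% to -15.9%), followed by GATA3 with -14.0% (-17.7% to -10.1%) and TFAP2A with -12.2% (-16.8% to -7.28%). In these bulk libraries, fewer cells of a type and less transcription per cell cannot be told apart. Among 26057 genes, SPDEF ranked 11 and GATA3 12 by p-value at 0.5 h, and TFAP2A ranked 58.

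SPDEF (ENSG00000124664; hg38, chromosome 6, 34537802 to 34556333, minus strand) encodes an ETS factor of secretory and luminal epithelium. Its transcription in DMSO was 98.2, 96.4, 84.3 and 87.0 CPM in replicates 1 to 4. At 0.5 h it was 76.1, 70.3, 70.2 and 70.2 CPM, and at 1 h 73.3, 69.7, 71.1 and 69.6 CPM. Every library of both times lay below every DMSO library. The 2 h libraries had 66.6, 73.7, 72.4 and 74.7 CPM and the 4 h libraries 78.1, 78.1, 75.9 and 79.0 CPM, again below all of DMSO. At 24 h, replicates 2 to 4 had 87.6, 87.4 and 81.9 CPM, within the DMSO range or just under it. The log2 fold change against DMSO was -0.35 ± 0.05 (SE) for 0.5 h, -0.37 ± 0.05 for 1 h, -0.35 ± 0.05 for 2 h and -0.23 ± 0.05 for 4 h. The edgeR adjusted p-values were 0.0011, 0.00064, 0.00084 and 0.024. At 24 h it was -0.09 ± 0.05, with an edgeR adjusted p of 0.787. Within replicate numbers, dTAG was below DMSO in 18 of 19 pairs. Here and for the genes below, pairs of one number share its DMSO library, so the 19 pairs are not independent. The like count over all genes was not made. The calls at 1 h and 2 h held in all 14 settings tried (edgeR and DESeq2 with and without the block, other scalings and filters, fewer groups, and replicates left out). The call at 0.5 h was lost in 1 setting, a fit restricted to DMSO and 0.5 h (adjusted p 0.184), and the call at 4 h was lost without any 1 of the replicates 1 to 4 (adjusted p 0.105 to 0.351), with only the libraries compared (0.329) and with total counts (0.102).

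GATA3 (ENSG00000107485; chromosome 10, 8045378 to 8075198, plus strand) encodes the activating GATA factor of luminal cells. Its transcription in DMSO was 1113, 1078, 1092 and 1077 CPM. The 0.5 h libraries had 911.5, 965.6, 924.6 and 946.4 CPM, and the 1 h libraries 945.2, 926.5, 924.5 and 951.5 CPM. All 8 were below every DMSO library, and DMSO itself varied by less than the gap. The 2 h values were 970.5, 968.5, 965.0 and 1006.5 CPM, at 4 h 1006, 992.1, 983.7 and 998.6 CPM, and at 24 h 1065, 1019 and 1074 CPM. Levels thus stood closer to DMSO at each later time from 2 h on, and the lowest DMSO library was still above the highest 24 h library. Fold changes on the log2 scale were -0.22 ± 0.03 (SE) at both 0.5 h and 1 h, -0.16 ± 0.03 at 2 h and, at 4 h, -0.13 ± 0.03. The edgeR adjusted p-values were 0.0011, 0.00072, 0.013 and 0.055. By 24 h the value was -0.05 ± 0.03, with an edgeR adjusted p of 0.855. The dTAG library was lower in 19 of 19 same-numbered pairs. The call at 1 h held in all 14 settings. The call at 0.5 h was lost in a fit restricted to DMSO and 0.5 h (adjusted p 0.252) and without replicate 3 (0.185), the call at 2 h without replicates 1, 3 or 4 (0.136 to 0.338), and the call at 4 h without any 1 replicate (0.166 to 0.563). With total counts in place of TMM factors the calls at 0.5, 2 and 4 h were lost (adjusted p 0.248, 0.708 and 0.422), and those at 2 h and 4 h also with no filter (0.162 and 0.204) and with only the libraries compared (0.444 and 0.544).

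TFAP2A (ENSG00000137203; chromosome 6, 10393186 to 10419659, minus strand) encodes AP-2 alpha. Its transcription in DMSO was 227.0, 229.9, 234.8 and 241.3 CPM, and at 0.5 h it was 203.0, 201.4, 210.1 and 204.8 CPM. The 1 h libraries had 216.2, 215.2, 213.4 and 205.3 CPM and the 2 h libraries 198.6, 206.8, 210.3 and 223.1 CPM. No library of these 3 times reached the lowest DMSO library. The 4 h values were 213.0, 223.8, 221.3 and 233.1 CPM and those of 24 h were 227.4, 230.5 and 238.9 CPM, which overlapped DMSO. Log2 fold changes were -0.19 ± 0.04 (SE) for 0.5 h, -0.13 ± 0.04 for 1 h and -0.15 ± 0.04 for 2 h. The edgeR adjusted p-values were 0.030, 0.129 and 0.084. With the replicate block the 1 h change was called as well (adjusted p 0.032), and those at 0.5 h and 2 h had adjusted p-values of 0.0028 and 0.011. The later log2 fold changes were -0.07 ± 0.04 (4 h) and -0.01 ± 0.04 (24 h). The edgeR adjusted p-values were 0.801 and 1.00. Without the block, the 0.5 h call was lost in a fit restricted to DMSO and 0.5 h (adjusted p 0.260) and without replicates 2, 3 or 4 (0.285 to 0.565), and the 2 h call without any 1 replicate (0.231 to 0.661). Both calls were also lost with no filter (0.344 and 0.665) and with total counts (0.633 and 0.935), and the 2 h call with only the libraries compared (0.435) and with the block on total counts (0.109). In 19 of 19 pairs of one replicate number, TFAP2A was lower with dTAG.

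**Figure D2:**
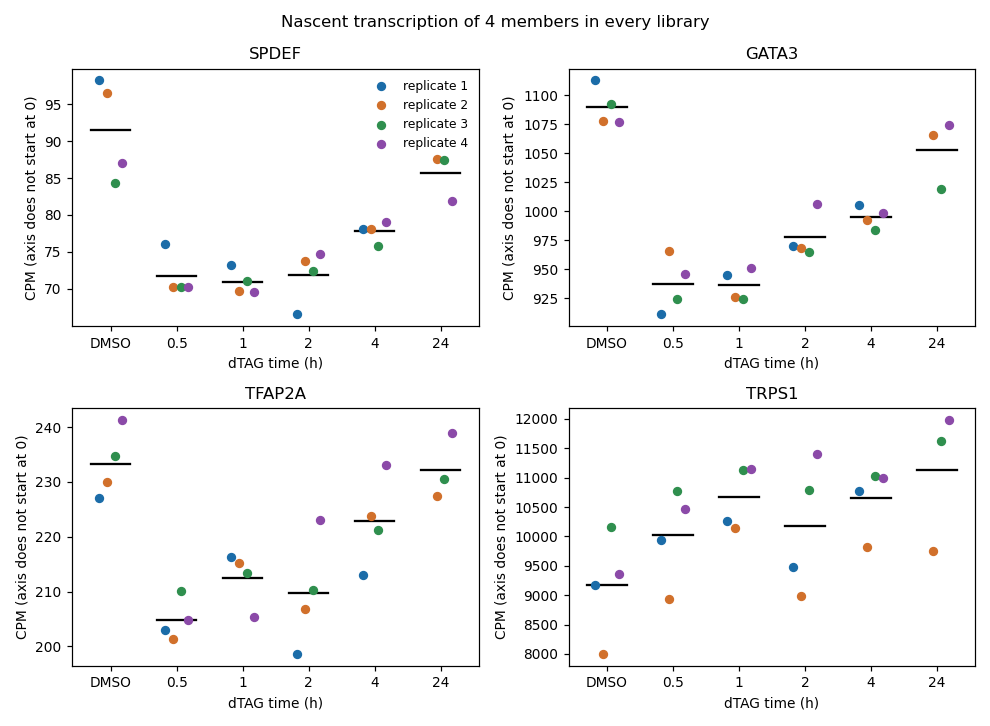
CPM of SPDEF, GATA3, TFAP2A and TRPS1 in every library, by dTAG time in hours. Points are libraries coloured by replicate number, black bars are group means, and the vertical axes do not start at 0. SPDEF, GATA3 and TFAP2A are lowest at 0.5 to 2 h and stand nearer to DMSO at 24 h, while TRPS1 is above the same-coloured DMSO point at every time.

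Counted over the 10 genes, 3 were called at 0.5 h without the replicate block, all lower, where 0.476% of all genes tested were called. The 1 h comparison had 2 (1.25% of all genes), that of 2 h had 3 (0.733%), that of 4 h had 2 (0.833%) and that of 24 h had 0 (0.863%). In the 24 h comparison 1 of the 10, TRPS1, had an unadjusted p under 0.05, as had 1922 of all 26057 genes. DESeq2 called TRPS1 there, among 344 of 16441 genes. With the block, the 0.5 h comparison had 4 (2.48% of all genes), that of 1 h had 5 (3.25%), that of 2 h had 4 (2.43%), that of 4 h had 3 (2.49%) and that of 24 h had 1 (2.65%). The genes added by the block were TRPS1, the only one higher, TFAP2A at 1 h and XBP1 at 1 h. The F-test over the times to 4 h called SPDEF, GATA3 and TFAP2A without the block (1.33% of all genes) and these and TRPS1 with it (4.60%). In the mean of the 5 dTAG times SPDEF and GATA3 were called without the block (1.15%), and TFAP2A and TRPS1 as well with it (2.86%). At 0.5 h, 9 of the 10 genes had a fold change below 0, against 46.8% of all genes tested, with a median log2 fold change of -0.09 against 0.01. The medians of the later times, in order, were -0.11, -0.09, -0.06 and -0.01, while that of all genes stayed between 0.00 and 0.01.

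**Figure D3:**
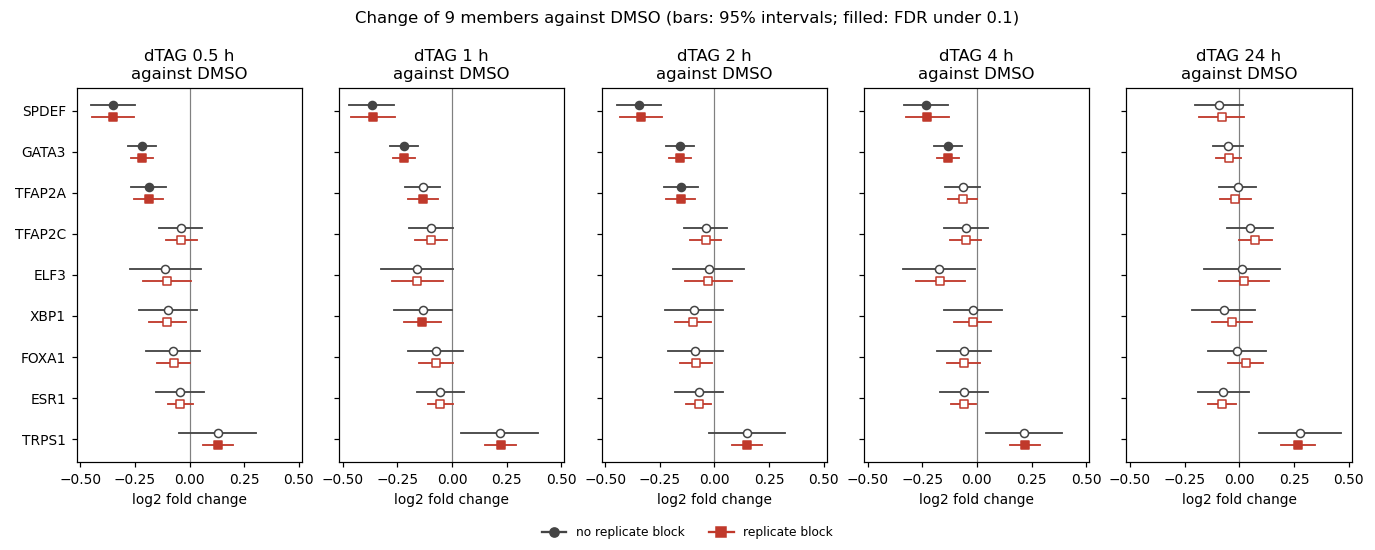
Log2 fold change of 9 of the factors at each dTAG time against DMSO, with 95% intervals. Circles are the fit without the replicate block and squares the fit with it, and filled symbols have an FDR under 0.1. TFAP2B is left out for its low counts. Filled symbols lie left of 0 for SPDEF, GATA3, TFAP2A and XBP1 and right of 0 for TRPS1.

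The difference between the late and the early time was tested directly, in a comparison chosen after the values had been seen. At 24 h, SPDEF was above its 0.5 h level by a log2 difference of 0.26 ± 0.05 (SE), TFAP2A by 0.18 ± 0.04 and GATA3 by 0.17 ± 0.03. The edgeR adjusted p-values were 0.018, 0.030 and 0.013. These 3 were the members called without the block, where 1.99% of all genes were called, and TRPS1 joined them with the block (log2 difference 0.14 ± 0.04, adjusted p 0.033) among 6.34% of all genes. Of the 10 genes, 9 had a log2 difference above 0, with a median of 0.14 against -0.01 over all genes. The SPDEF call was lost without replicates 2, 3 or 4 (adjusted p 0.217, 0.381 and 0.219), that of TFAP2A without the same replicates (0.204, 0.418 and 0.308) and that of GATA3 without replicates 3 or 4 (0.273 and 0.288). Against 4 h, edgeR called no member at 24 h, either without the block (0.453% of all genes) or with it on all libraries (1.77%), while the block without replicate 1 called TFAP2C higher (log2 difference 0.14 ± 0.03, adjusted p 0.037). There 3 of the 10, SPDEF, GATA3 and ELF3, had unadjusted p-values under 0.05 without the block, with log2 differences of 0.14 ± 0.05, 0.08 ± 0.03 and 0.19 ± 0.08. Of all 26057 genes, 1949 had such p-values. DESeq2 with the block also called TFAP2C in that comparison (adjusted p 0.022) and without the block no member.

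TRPS1 was the 1 member called higher against DMSO, in edgeR only with the replicate block. Its transcription ran from 7997 to 10157 CPM in DMSO, from 8928 to 11408 CPM over the libraries from 0.5 to 4 h, and from 9757 to 11979 CPM at 24 h. The groups overlapped at every time, but each dTAG library was above the DMSO library of the same number, in 19 of 19 pairs and by log2 ratios of 0.05 to 0.36. These pairs are not independent, since those of one number share its DMSO library. With the replicate block the change was 9.4% (95% interval 4.25% to 14.8%) at 0.5 h and 20.4% (14.2% to 26.9%) at 24 h, both called. DESeq2 with the block called TRPS1 at 1, 4 and 24 h and not at 0.5 h or 2 h (adjusted p 0.260 and 0.210). Without the block the 95% intervals of these were wider, -3.19% to 23.5% and 6.4% to 38.2%, and neither was called. The levels of TRPS1 spanned 0.24 on the log2 scale between replicate numbers, the widest range of the 10 genes.

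ESR1 (chromosome 6, 151656691 to 152129619), which encodes estrogen receptor alpha, was not called at any time in either edgeR fit. Its transcription was 2536, 2358, 2686 and 2527 CPM in DMSO, 2415, 2343, 2526 and 2526 CPM at 0.5 h, and for 24 h 2243, 2427 and 2535 CPM, and the groups overlapped. The log2 fold change lay between -0.07 and -0.04 at the 5 times. Without the block the 95% intervals were -10.0% to 4.6% at 0.5 h and -12.3% to 3.08% at 24 h. With the block they were -6.7% to 0.99% at 0.5 h and -9.31% to -1.08% at 24 h. The block intervals at 2 h (-8.55% to -1.01%) and 4 h (-7.74% to -0.13%) also lay below 0. Within replicate numbers, ESR1 was below DMSO in 17 of 19 pairs. In 1 of the 14 settings, the block with total counts, edgeR called it lower at 4 h (adjusted p 0.065) and in the mean of the 5 dTAG times (0.088).

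FOXA1 (chromosome 14, 37589552 to 37596059), a forkhead pioneer factor, was likewise not called. In DMSO its libraries had 183.5, 154.5, 160.0 and 151.1 CPM, and the 0.5 h libraries 160.8, 150.8, 148.5 and 155.8 CPM, within the DMSO range but for 2 libraries just under it. Its log2 fold changes lay between -0.09 and -0.01, with a 95% interval of -12.9% to 3.42% at 0.5 h. The 24 h group held no replicate 1, in which FOXA1 was highest. The 24 h change was -0.01 without the block and 0.03 with it, was also above 0 with total counts, with no filter and without replicate 1, and was called in none of these fits, and FOXA1 was above DMSO in 3 of 3 pairs. TTC6 on the other strand had 268.7% of the reads of FOXA1. It overlaps FOXA1 only from position 37595629 to 37596059, at the start of FOXA1, and whether reads there were counted by strand is not stated. TTC6 was lower at 2 h and 4 h with the block (log2 fold changes -0.13 and -0.14, edgeR adjusted p 0.044 and 0.024).

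TFAP2C (chromosome 20, 56629306 to 56639283), the AP-2 gamma gene, had 224.6, 223.6, 208.8 and 211.3 CPM in DMSO and 215.4, 199.1, 202.3 and 195.9 CPM at 1 h, when its log2 fold change was lowest (-0.10 ± 0.05, edgeR adjusted p 0.567). At 24 h it had 231.1, 227.9 and 214.8 CPM, which in 3 of 3 pairs exceeded the DMSO value of that replicate. TFAP2A and TFAP2C are paralogs at like CPM, and the 95% interval of TFAP2C at 0.5 h, -9.2% to 4.18%, overlapped that of TFAP2A. TFAP2B, the third AP-2 gene, ran between 2.34 and 4.92 CPM over all libraries. Its 95% interval at 0.5 h was -24.6% to 22.95%, so changes as large as that of SPDEF at 0.5 h could not be told from 0 at this depth.

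ELF3 (chromosome 1, 202007945 to 202017183), an epithelial ETS factor, had 48.5, 59.7, 48.0 and 45.3 CPM in DMSO. At 4 h it had 45.2, 44.1, 44.2 and 44.8 CPM, each below every DMSO library, yet the fold change of -0.17 ± 0.08 on the log2 scale was not called (edgeR adjusted p 0.623 without the block). DMSO replicate 2 was the highest ELF3 value of all libraries. XBP1 (chromosome 22, 28794555 to 28800597) had 344.9, 322.4, 337.3 and 301.2 CPM in DMSO and 325.4, 288.5, 283.9 and 293.2 CPM at 1 h. Its 1 h log2 fold change was -0.13 ± 0.06, with an edgeR adjusted p of 0.528, or 0.094 under the block, and at the other times it was not called in either fit.

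**Figure D4:**
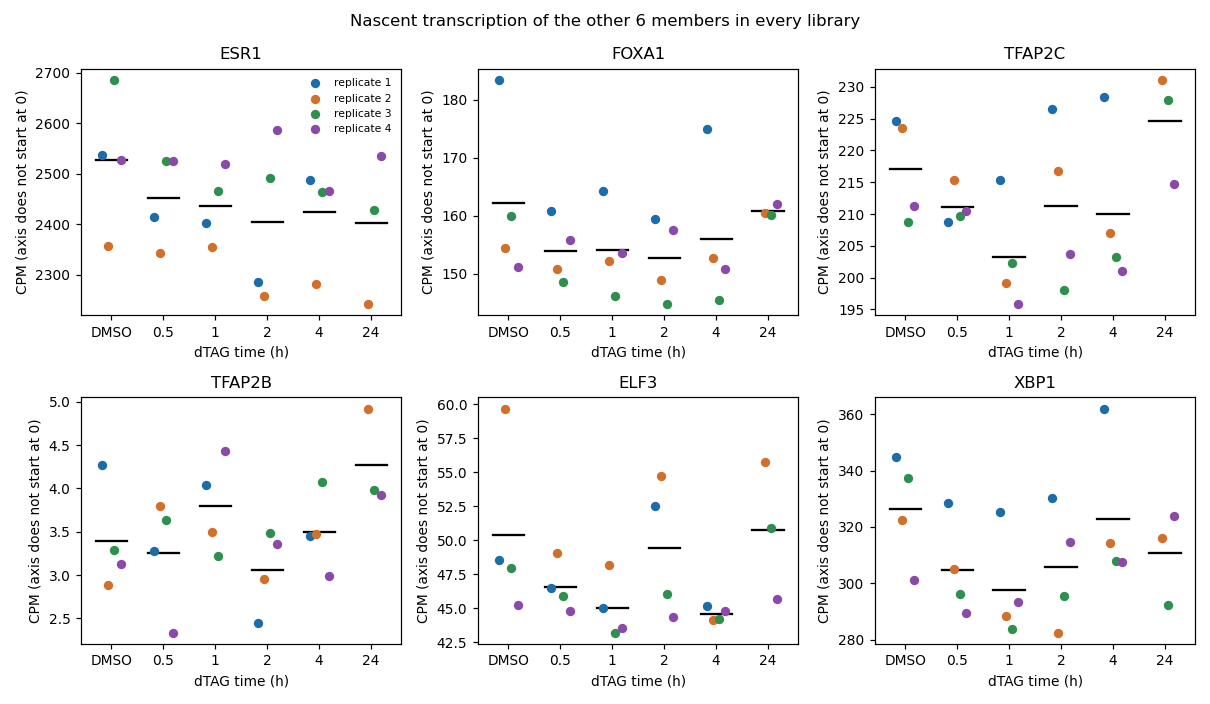
CPM of ESR1, FOXA1, TFAP2C, TFAP2B, ELF3 and XBP1 in every library, by dTAG time in hours, with points coloured by replicate number and black bars for group means. The vertical axes do not start at 0. Points of the same colour often keep their place within a group, and dTAG groups overlap DMSO except for ELF3 at 4 h.

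The replicate numbers separated some members and not others. In edgeR's F-test between numbers with the treatment group in the fit, 6 of the 10 were called: TRPS1, ESR1, FOXA1, TFAP2C, ELF3 and XBP1, against the 34.7% of all genes given above. Adjusted p-values were 1.3e-06 for TRPS1, 0.00029 for ESR1, 0.0011 for FOXA1, 0.0021 for XBP1, 0.0033 for ELF3 and 0.015 for TFAP2C. FOXA1 and XBP1 were highest in replicate 1, by 0.13 to 0.17 (log2) over the other numbers. GATA3, TFAP2A and SPDEF, the genes that fell, were not called, with adjusted p-values of 0.539, 0.239 and 0.634 and ranges of 0.04, 0.07 and 0.05 on the log2 scale.

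Genes that overlap or start beside the members were examined, since reads could be assigned to either. GATA3-AS1, an antisense RNA that overlaps the annotated GATA3 span with 4.3% of its reads, was lower at 1 h (log2 fold change -0.28, edgeR adjusted p 0.014) and not called at the other times without the block. With the block it was also called at 0.5 h (-0.18, adjusted p 0.067). TFAP2A-AS1 had 19.5% of the reads of TFAP2A and log2 fold changes of 0.01 at 0.5 h and 0.00 at 1 h, called in neither fit. ENSG00000232638 lies within the GATA3 span on the same strand, with 2.5% of the GATA3 reads. It was called lower at 1 h with the block only (edgeR adjusted p 0.016, against 0.129 without it). The log2 fold change of ENSG00000232638 at 1 h was -0.35 without the block. Apart from TTC6, described above, the remaining neighbours were not called at any time in either fit. They were ENSG00000249007 on the ELF3 strand (19.5% of ELF3 reads), antisense ELF3-AS1 (16.6%) and TFAP2A-AS2 (4.0% of TFAP2A reads). ENSG00000226471 starts beside XBP1 on the other strand (43.0%), and ENSG00000284615 and SYNE1 overlap ESR1 (0.375% and 0.417%). No gene with a mean of at least 10 reads overlapped SPDEF, TFAP2C, TFAP2B or TRPS1 or started within 5 kb of their starts.

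Of 20 other luminal transcription factors, all passed the filter. Without the block, 1 was higher and 2 lower at 0.5 h, 1 higher and 4 lower at 1 h and again at 2 h, 1 higher and 3 lower at 4 h, and 2 higher and 0 lower at 24 h, where 0.476%, 1.25%, 0.733%, 0.833% and 0.863% of all genes were called in that order. With the block they were 2 higher and 3 lower, 2 and 7, 2 and 5, 2 and 8, and 2 and 2, against 2.48%, 3.25%, 2.43%, 2.49% and 2.65% of all genes. The median log2 fold changes of the list without the block, by increasing time, were -0.05, -0.10, -0.09, -0.12 and -0.01. EHF, an epithelial ETS factor related to ELF3, had 411.0 ± 18.7 CPM (SD, n = 4) in DMSO and rose to a mean of 496.8 CPM at 0.5 h and 476.9 CPM at 24 h. The EHF change (log2) was 0.27 ± 0.04 (SE) for 0.5 h and 0.21 ± 0.05 for 24 h. The edgeR adjusted p-values were 0.0032 and 0.027, so it rose while its relative SPDEF fell. MYB, a factor of luminal progenitor and ER-positive cells, fell by 0.34 ± 0.06 on the log2 scale at 0.5 h and by 0.36 ± 0.06 at 4 h (edgeR adjusted p 0.0054 and 0.0020) and had a change of -0.12 ± 0.06 at 24 h (0.709). PGR, the progesterone receptor gene, was called lower from 1 h to 24 h only with the block, with a largest fall at 2 h (-0.24 ± 0.03, edgeR adjusted p 0.00032, against 0.328 without it).

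Among 18 relatives of the members by family, 14 passed the filter, and without the block EHF at 0.5, 1, 2 and 24 h, and EHF and ELF5 at 4 h, were the calls. With the block GATA6 was higher at 24 h (log2 fold change 0.46 ± 0.10, edgeR adjusted p 0.016) and GATA4 at 0.5 h (0.29 ± 0.08, adjusted p 0.055). FOXA2, FOXA3, GATA1 and TFAP2D did not pass, with at most 12 reads in a library. Of 20 coregulators of the estrogen receptor and its partners 19 passed. TLE3, a corepressor that FOXA factors recruit, fell at the 4 times to 4 h, by 0.24 ± 0.05 at 0.5 h and 0.30 ± 0.05 at 1 h on the log2 scale (edgeR adjusted p 0.026 and 0.0022), and was -0.06 ± 0.05 at 24 h (0.886). Without the block no other coregulator was called at 0.5 h or 4 h, ZMYND8 was higher at 1 h and 2 h, and FHL2 lower at 24 h (-0.24 ± 0.05, adjusted p 0.017).

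Luminal and basal markers were read beside the members, and their part in these results was not tested. Of 14 luminal markers, MLPH was called lower at 1 h without the block (log2 fold change -0.26 ± 0.03, edgeR adjusted p 0.00048) and none at the other times. With the block MLPH was called lower at 0.5, 1 and 2 h. KRT19 was called lower at 0.5, 1, 2 and 24 h with the block only (-0.21 ± 0.03 at 1 h, edgeR adjusted p 0.00038). Also with the block only, PRLR was called higher at 0.5 h (means of 4531 CPM against 4259 CPM in DMSO) and lower at 24 h (3970.1 CPM), AGR2 was called higher at 24 h (0.14 ± 0.04, adjusted p 0.046), KRT7 was called lower at 1 h and 2 h, and KRT8 at 1 h. PRLR and KRT8 are outside the naming rule and were chosen after their values were seen. TP63, the p63 gene of basal cells and the 1 basal marker called without the block, was higher at 1, 2, 4 and 24 h, with a level of 19.8 ± 1.03 CPM (SD, n = 4) in DMSO and a mean of 27.98 CPM at 1 h. The change (log2) was 0.49 ± 0.09 for both 1 h and 24 h (edgeR adjusted p 0.0050 and 0.0072). With the block TP63 was called higher at 0.5 h as well. FOXC1, a forkhead factor of basal-like tumours, was called lower at 2 h and 4 h with the block only (-0.45 ± 0.12 and -0.43 ± 0.12, edgeR adjusted p 0.059 and 0.097).

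The genes whose pattern over the 23 libraries was most like that of each member but TFAP2B, whose counts were too low, were named by a rule, after the mean of each replicate number was subtracted from log2 CPM and among 14148 genes with a mean of at least 100 reads. For GATA3 they were SLC37A1 (r = 0.92) and PCDH1 (0.91), and for SPDEF PCDH1 (0.88) and P3R3URF-PIK3R3 (0.88). TFAP2A had P3R3URF-PIK3R3 (0.86) and PTPN12 (0.86), so that SPDEF shared a named gene with each of the other two factors that fell. For ESR1 they were PGR (0.83) and CHPT1 (0.82), and for TRPS1 FYB2 (0.95) and ROBO2 (0.95). FOXA1 had NPNT (0.82) and BBX (0.78), TFAP2C had CDK18 (0.84) and LDB1 (0.83), ELF3 had OSBPL2 (0.84) and CCDC102A (0.79), and XBP1 had PDE6D (0.80) and PTGES (0.80). These correlations describe libraries that share 6 treatment groups and their depth, and carry no test.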

How the data were processed

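PRO-seq libraries were made from T47D dTAG-TRPS1 Clone 28 cells in 6 groups (23 libraries; 24 h replicate 1 not analysed here). The authors deposited 1 table of raw read counts per Ensembl gene. Per the submitters' processing notes, cutadapt 1.8.1, Bowtie2 2.4.4 and SAMtools 1.9 were used with hg38, and the study's methods describe removal of UMI duplicates and ribosomal DNA reads. Which annotation was counted over, and whether by strand, is not given in the sources used here.

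Gene symbols and positions came from GENCODE 44 (60463 of 60605 IDs matched) and promoter sequences from RefSeq. Counts were tested with edgeR 4.0.16 in R 4.3.3 (filterByExpr, minimum count 10 and minimum total 15; TMM; quasi-likelihood F-test; Benjamini-Hochberg FDR under 0.1) without a replicate term. The filter kept 26057 genes, or 25255 in the 20 libraries to 4 h, with 99.5% to 99.6% of counts. Library totals ran from 4408544 to 17571616. Alternatives were DESeq2 1.42.0, other scalings, no filter, fits of only the groups compared, leaving out each replicate, and the replicate number as a block. The treatment protocol in the labels has replicates treated and harvested at different hours of one day, with all time points of a set harvested together, so a number was read as a shared harvest. Deviations from group means correlated within numbers (mean r 0.287 over 55 pairs). Between numbers the mean r was -0.08 over 165 pairs. Deviations within a group sum to 0, so the second value is tied to the first and is not separate evidence. The labels name 1 clone, so p-values measure the spread between harvests of that clone.

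The members and gene lists were chosen with earlier results of these data known. All 10 members are named, with 2 most alike genes for each but TFAP2B. List genes were named where called in either fit, at most 4 per list. Some of these genes are not reported here. The scripts were tested on simulated data.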

Additional observations from a re-analysis of the deposited data

Results flagged for a closer look

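Among 50 groups of 4 libraries (10 genes in the 5 groups of that size), 4 held a library far from the other 3 by Dixon's test, and chance gives about 1 in 20. SPDEF had 76.1 CPM in replicate 1 at 0.5 h, against 70.2 to 70.3 CPM in the others, and was still below every DMSO library. GATA3 had 1006.5 CPM in replicate 4 at 2 h, against 965.0 to 970.5 CPM. ESR1 had 2282 CPM in replicate 2 at 4 h, against 2465 to 2487 CPM. XBP1 had 362.0 CPM in replicate 1 at 4 h, against 307.6 to 314.3 CPM.

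The early and the late response differed for 3 members in the direct test of 24 h against 0.5 h (edgeR). The log2 difference was 0.26 ± 0.05 (SE) for SPDEF, 0.17 ± 0.03 for GATA3 and 0.18 ± 0.04 for TFAP2A, with adjusted p-values of 0.018, 0.013 and 0.030. This comparison was chosen after the values had been seen. The 3 calls were lost with only the libraries compared (0.141, 0.304 and 0.203) and without replicate 3 (0.381, 0.273 and 0.418) or replicate 4 (0.219, 0.288 and 0.308), those of SPDEF and TFAP2A also without replicate 2 (0.217 and 0.204), those of GATA3 and TFAP2A with total counts (0.178 and 0.248), and that of TFAP2A with no filter (0.194).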

How the results depend on the processing

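Over 90 pairs of a member and a comparison, 1006 of 1160 alternative values kept direction and side of the threshold, 63 lost a call, 52 gained one and 39 changed sign. None of the 39 was called in that comparison, either by that alternative or by the edgeR fit without the block. Against DMSO, SPDEF, GATA3 and TRPS1 kept their direction in 70 of 70 values each and TFAP2A in 66. The cause of a moved count was not tested, except that fits of fewer libraries have fewer degrees of freedom.

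The replicate block pairs harvests as the treatment protocol describes. With it, the count of called members was 5 at 1 h, 1 at 24 h and 4 in the mean of the 5 times. Of all genes 3.25%, 2.65% and 2.86% were called there. No other count moved by over 1.5 times. The same 3 counts came from the block without replicate 1, where 733, 1096 and 895 of 26336 genes were called. With the block and total counts they were 5, 1 and 5, and 4 at 4 h, among 778, 495, 570 and 484 of 26057 genes. DESeq2 with the block gave 5 at 1 h (781 of 13932 genes called), 1 at 24 h (736 of 15448) and 5 over the time course (1381 of 14973). It gave 4 in the mean (742 of 14943) and 1 at 24 h against 4 h (581 of 14438). There the block without replicate 1 also gave 1 (583 of 26336). DESeq2 alone gave 1 at 24 h (344 of 16441) and 4 in the mean (356 of 17449). Total counts gave 0 for 4 h (87 of 26057 genes) and 1 each for 0.5 h (30), 2 h (81), the mean (125) and 24 h against 0.5 h (127). Over the time course they gave 1 (93 of 25255). Only the libraries compared gave 1 for 2 h (79 of 24237 genes). They gave 0 each for 0.5 h (2 of 23506), 4 h (38 of 23579) and 24 h against 0.5 h (61 of 25434). No filter gave 1 at 2 h and 1 at 4 h, among 114 and 127 of 56126 genes. Leaving out 1 replicate gave 1 to 3 for 0.5 h, 1 to 2 for 2 h, 0 for 4 h, 1 to 2 over the time course, 1 to 2 in the mean and 0 to 3 at 24 h against 0.5 h. Calls over all genes were then 14 to 88, 43 to 155, 64 to 182, 38 to 266, 94 to 229 and 19 to 469, in that order. The level of each member per kb of gene span in DMSO had a median of 15.3 CPM, and 60.1 CPM per kb of exon.

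Sign changes were small (log2). FOXA1 at 24 h was 0.029 with the block, 0.022 in DESeq2 with the block, 0.0013 with no filter, 0.032 with block and total counts, 0.047 with the block without replicate 1 and 0.023 with total counts. TFAP2A at 24 h was 0.0063 with no filter and 0.025 with total counts. TFAP2B with the block without replicate 1 was 0.043 at 0.5 h and 0.064 at 2 h, and with total counts -0.00027 over the time course. At 24 h against 4 h, ESR1 was 0.0071 with no filter, 0.026 with block and total counts, 0.00044 with the block without replicate 1 and 0.059 with total counts, and XBP1 was 0.032, 0.0053 and 0.023 in the last 3 of these settings. ESR1 at 24 h against 0.5 h was 0.010 with total counts. Leaving out 1 replicate gave TFAP2B -0.20 to 0.047 at 0.5 h, -0.21 to 0.061 at 2 h, -0.055 to 0.17 at 4 h, -0.066 to 0.12 over the time course and -0.015 to 0.18 in the mean. It gave ELF3 -0.070 to 0.0074 (2 h) and -0.014 to 0.035 (24 h), FOXA1 -0.055 to 0.049 and TFAP2A -0.022 to 0.0054 at 24 h, and XBP1 -0.053 to 0.021 at 4 h. For 24 h against 4 h it gave ESR1 -0.049 to 0.0097 and XBP1 -0.11 to 0.0060, and against 0.5 h XBP1 -0.030 to 0.066. The 13 to 72 reads of TFAP2B per library limit what could be detected for that gene.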
